A study of Homo sapiens with 4 samples.

Results

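The genes described here encode the machinery that fires replication origins and copies DNA at the fork. These 46 genes were chosen by name from their known roles, with earlier results of these data known. All were found among the 18885 genes listed for MV4-11. MV4-11 is a human AML cell line, and RNA-seq was done on 2 control (sh-NC) and 2 ANP32B-depleted (sh-ANP32B) libraries. For the control cells the labels list neither shRNA nor treatment, although the study calls them sh-NC, and both knockdown columns are marked S3, which may name 1 hairpin but is not explained. The comparison therefore rests on 1 cell line. If the control cells carried no shRNA, an effect of carrying one cannot be told apart from the loss of ANP32B. If S3 names 1 hairpin, an effect of that hairpin on other genes cannot be told apart from it either.

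Before a cell divides, the origin recognition complex marks the sites where replication can begin, and the MCM helicase is loaded there. In S phase the DDK kinase and a set of firing factors join CDC45 and the GINS complex to the helicase, which then unwinds the DNA. DNA polymerase alpha-primase lays down primers, polymerases epsilon and delta extend them on the leading and lagging strands, and the sliding clamp PCNA, placed by clamp loaders, holds the polymerases on the template. Many of these genes are transcribed in waves as cells enter S phase, and their RNA is therefore abundant in dividing leukemia cells.

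The values were TPM, reads per unit of gene length brought to nearly the same total in every library (997271 to 998546), so that levels of different genes can be set side by side. TPM keep no number of reads, hence the depth behind each value, and with it the counting error, is unknown. ANP32B, the targeted gene, had 358 and 364 TPM in the control libraries and 54.1 and 49.3 TPM after knockdown. Mitochondrially encoded genes held 15.4% to 15.9% of the TPM in sh-NC and 17.4% to 17.6% in sh-ANP32B. Of the 7 genes fixed as marks of this leukemia, all were listed, from 6.20 and 6.30 TPM (FLT3) to 381 and 383 TPM (CD4) in sh-NC, whereas erythroid, epithelial and fibroblast markers were not among the genes listed.

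The groups were compared with limma on log2(TPM + 1), and p-values were adjusted by Benjamini-Hochberg over the 16937 genes that reached 1 TPM in 2 or more libraries. Calls needed an adjusted p below 0.05 and a log2 fold change above 0.5 or below -0.5, the fold limit of the study's methods. All 46 genes passed the filter on low values, and their TPM in single libraries ranged from 7.83 to 403. For 1 gene in 2 against 2 libraries, the smallest two-sided p of an exact permutation test is 0.333. The p-values from limma can be smaller because it fits a model that assumes normal errors. Its variance for each gene borrows from all genes. The labels do not say whether the 2 libraries of a group came from separate cultures, and the p-values measure the spread between these libraries only.

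All 46 replication genes had a negative log2 fold change after ANP32B knockdown, as did 7402 of the 16937 genes tested. Of the 46, 37 were called lower, against 10.1% of all genes tested. Because the 46 were chosen with earlier results known, their shares were not tested against those of all genes. None of the 46 was called higher, against 17.9% of all genes tested. At an unadjusted p below 0.05, and in a treat test of limma against the fold limit, none was higher either. With no fold limit 42 of the 46 were lower (19.7% of all genes tested), and 12 were called lower with a log2 fold change beyond -1 (1.61%). The median log2 fold change was -0.89, beside 0.08 over all genes tested. Summed over the 46 genes, sh-NC held 3396 and 3430 TPM and sh-ANP32B held 1953 and 1949.8 TPM, which left 57.2% of the control sum. The single genes kept between 34.7% and 87.6% of their control mean. In 45 of the 46 genes both sh-ANP32B libraries lay below both sh-NC libraries, against 32.1% of all genes tested, and RPA3 was the gene whose groups overlapped. In bulk RNA, fewer cells in S phase and less RNA of these genes per cell cannot be told apart.

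In control cells the group means of the 46 genes ran from 9.37 TPM (ORC4) to 402 TPM (PCNA), with a median of 53.6 TPM, and 43 of them were above 20 TPM. In knockdown cells the median was 27.4 TPM. The fall was of like size in most of them, as 28 genes kept between 45% and 65% of their control mean and 14 kept at most 50%. For 30 genes the 95% interval of the log2 fold change lay wholly below the fold limit of -0.5. These counts were not made over all genes tested. Replicates lay close together beside these changes, with a median log2 gap of 0.0595 within sh-NC and of 0.0894 within sh-ANP32B. Across the 46 genes, which share the same 4 libraries, the control level and the log2 fold change had a Spearman correlation of -0.179, given as a description.

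**Figure D1:**
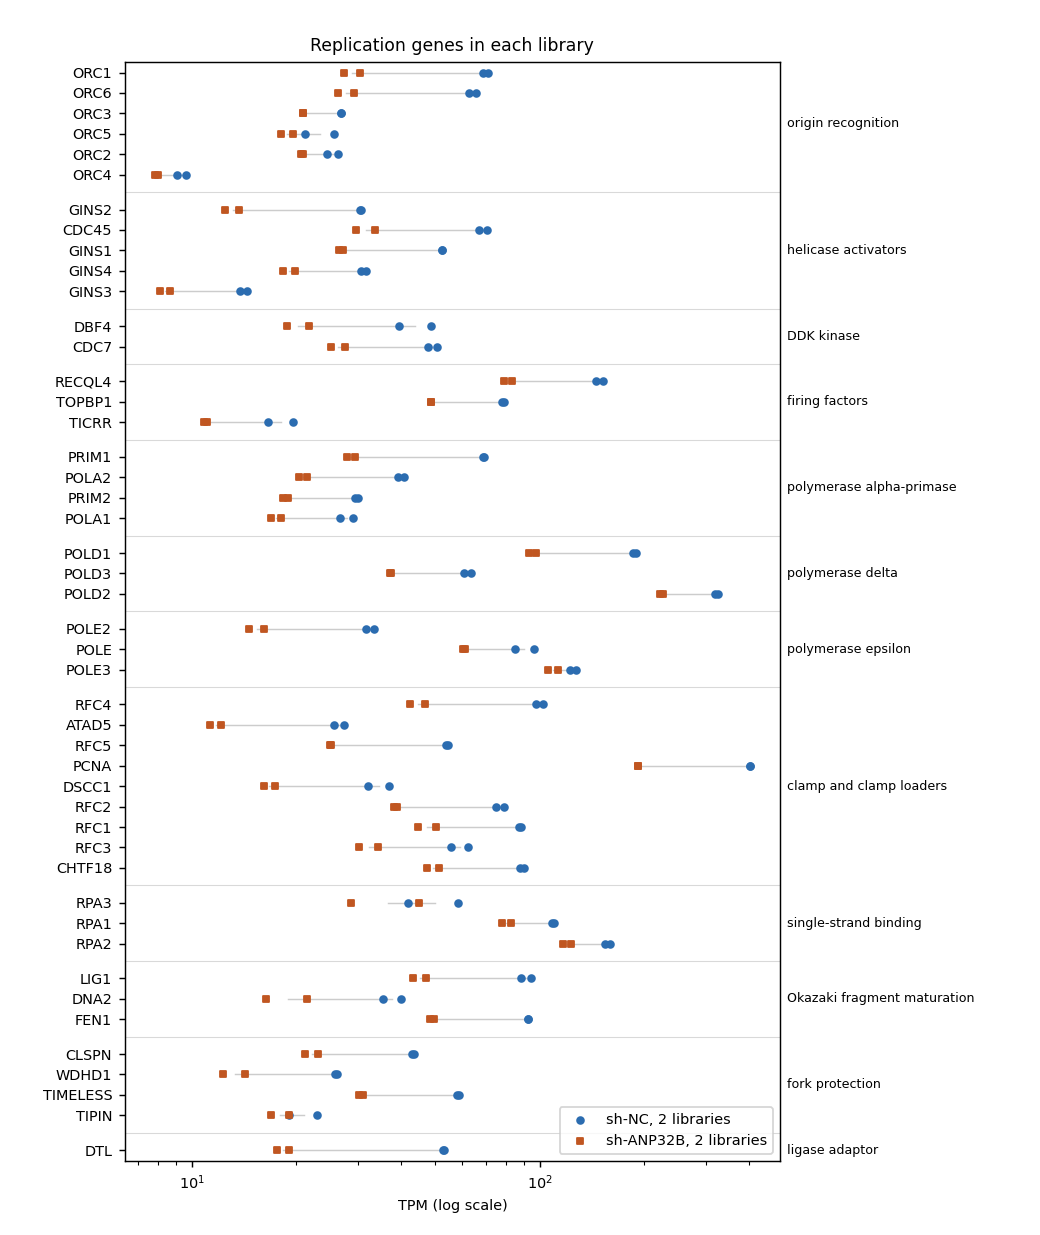
TPM of the 46 replication genes (log axis) in the 2 sh-NC libraries (circles) and the 2 sh-ANP32B libraries (squares), grouped by role, with a line joining the group means. The squares lie left of the circles in every gene but RPA3, where 44.9 TPM in a knockdown library exceeds 41.8 TPM in a control library.

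The 5 genes of lowest log2 fold change came from several steps of replication, with ORC1 and ORC6 both from the origin recognition complex. DTL, the adaptor that brings PCNA-bound proteins such as CDT1 to a ubiquitin ligase, had 53.0 and 52.9 TPM in sh-NC and 17.6 and 19.1 TPM in sh-ANP32B. Its log2 fold change of -1.48 (95% interval -1.66 to -1.30, adjusted p = 1.35e-04 from limma) was the lowest of the 46, and 0.254% of all genes tested lay below it. ORC1, the largest subunit of the origin recognition complex, fell from 69.0 and 71.1 TPM to 30.4 and 27.5 TPM (log2 fold change -1.25, adjusted p = 1.96e-04 from limma). PRIM1, the catalytic subunit of primase, fell from 68.9 and 69.4 TPM to 28.0 and 29.5 TPM (log2 fold change -1.24, adjusted p = 1.34e-04 from limma). In hg38 with GENCODE version 44, DTL (ENSG00000143476) lies at chr1:212035553-212107400 on the plus strand, ORC1 (ENSG00000085840) at chr1:52372829-52404423 on the minus strand and PRIM1 (ENSG00000198056) at chr12:56730438-56752374 on the minus strand. The knockdown means of DTL, ORC1 and PRIM1 were 34.7%, 41.3% and 41.6% of their control means. ORC6 (-1.18) and GINS2 (-1.17) followed on the log2 scale.

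The promoters of the 3 lowest genes are shown because each holds a word of the kind bound by E2F factors, the transcription factors that switch on S-phase genes. The sequences are from RefSeq on GRCh38.p14 and run 5′ to 3′ along the gene's strand, and capitals mark the E2F words, where a word on one strand may overlap a word on the other. The stretch of DTL is chr1:212035730-212035759 on the plus strand, that of ORC1 chr1:52404424-52404453 on the minus strand, and that of PRIM1 chr12:56752329-56752358 on the minus strand. The word shown begins 7 bases before the RefSeq start of DTL and 24 bases before that of PRIM1, and the pair of ORC1 begins 22 and 19 bases before its start. GENCODE version 44 annotates exons of DTL and of PRIM1 over their stretches, and no exon over that of ORC1.
DTL: gtgacgtcagtTTGGCGCggagtttggcgg
ORC1: cacgccgaTTGGCGCGAAgttttcttttct
PRIM1: cggccgtgctgTTCCCGCcaattcctgtgg

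Of the 46 genes, 38 matched the RefSeq table of promoters, which covers 250 bases before to 50 bases after the start, and ATAD5, DNA2, DSCC1, GINS4, POLD3, RECQL4, RPA2 and RPA3 did not. The first word searched was TTCCCGC, a further word was TTCGCGC, another was TTGCCGC, and the last was TTGGCGC, each on both strands. At least 1 of them stood in 24 of the 38 promoters (63.2%), beside 13.1% of all 27303 promoters of the same length and 20.7% of the 10014 promoters whose genes were tested. The median GC content was 65.3% in both the replication genes and the tested genes. Among the 31 genes called lower that had a promoter, 22 held a word, and among the 7 not called, 2 did (ORC3 and RPA1). The median log2 fold change was -0.93 with a word and -0.66 without one. The words were chosen with earlier results of these data known, and a match is a description of letters in a window. CCAAT stood in 21 of the 38 promoters (55.3%, beside 36.5% of the tested genes). The E-box CACGTG, the core sequence recognised by MYC with MAX, stood in 3 of them (7.89%, beside 10.6%). TTTGAA, the core of the cell cycle element CHR, stood in 1 of them, that of DBF4 (2.63%, beside 9.76% of the tested genes).

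**Figure D2:**
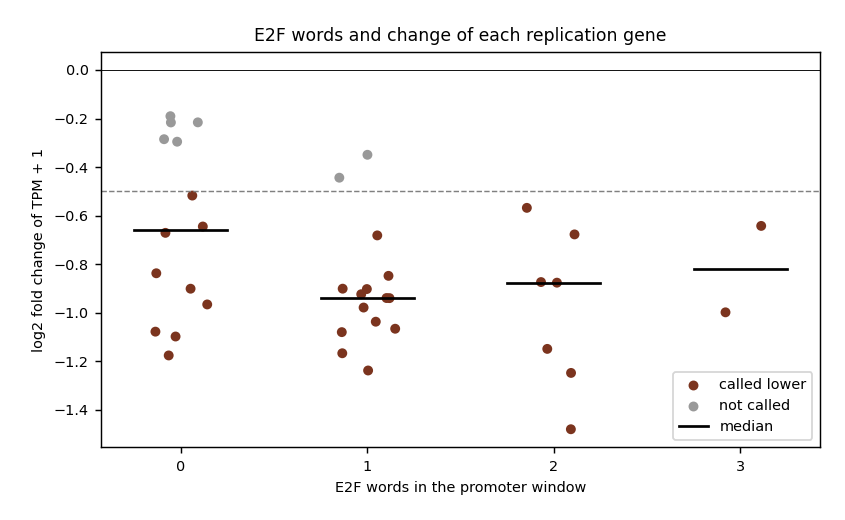
Log2 fold change of TPM + 1 for the 38 replication genes with a promoter, against the number of E2F words in the promoter, with points spread sideways for view and bars at the medians. The 14 genes without a word range from -1.18 to -0.19 and hold 5 of the 7 genes not called, and the medians are -0.66 with no word, -0.94 with 1 word (15 genes), -0.88 with 2 words (7 genes) and -0.82 with 3 words (2 genes), so they do not fall step by step with the number of words.

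For contrast, exon-free stretches upstream of ORC1, and of TIPIN and ORC4, which were among the genes nearest to no change, are given with the same marking. That of ORC1 is chr1:52404424-52404601 on the minus strand and holds both of its words, which overlap. That of TIPIN is chr15:66386747-66386836 and that of ORC4 is chr2:148021685-148021755, both on the minus strand. The stretches run from 178 to 1 bases before the RefSeq start for ORC1, 119 to 30 for TIPIN and 204 to 134 for ORC4. They therefore do not cover the same distances from the start. Neither of the last 2 stretches has a capital, and no E2F word stood anywhere in the promoters of TIPIN and ORC4. ORC3, which was not called either, did hold a word. ORC6 (log2 fold change -1.18) and CDC45 (-1.10) were called lower and held none. Any part of the words in these changes was not tested.
ORC1: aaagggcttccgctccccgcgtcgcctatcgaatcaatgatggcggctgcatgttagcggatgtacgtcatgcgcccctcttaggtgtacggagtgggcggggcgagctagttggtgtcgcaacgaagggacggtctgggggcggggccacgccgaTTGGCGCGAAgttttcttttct
TIPIN: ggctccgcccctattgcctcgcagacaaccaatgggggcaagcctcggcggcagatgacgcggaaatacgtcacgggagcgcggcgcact
ORC4: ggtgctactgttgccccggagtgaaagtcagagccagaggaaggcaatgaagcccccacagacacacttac

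Within the origin recognition complex, which binds origins and loads the MCM helicase, 2 of the 6 genes were called lower. These were ORC1 and ORC6, the smallest subunit, which fell from 65.7 and 62.6 TPM to 29.4 and 26.3 TPM (log2 fold change -1.18, 95% interval -1.36 to -0.99, adjusted p = 2.52e-04 from limma). ORC2 to ORC5, which form the core of the complex, stayed within the fold limit, from -0.35 (ORC3) to -0.22 (ORC4). ORC3 fell from 26.9 and 26.9 TPM to 20.9 and 20.9 TPM with little spread (adjusted p = 0.0104 from limma), less than the fold limit. ORC2 had 26.4 and 24.6 TPM against 20.8 and 20.6 TPM, with an adjusted p of 0.0287 from limma that was 0.0520 to 0.130 with each library left out. ORC5 (25.6 and 21.2 against 19.5 and 18.1 TPM) and ORC4 (9.66 and 9.07 against 8.01 and 7.83 TPM) did not pass the test, with an adjusted p of 0.0787 and 0.173 from limma. The log2 fold change of ORC5 was -0.30, and it was -0.17 without sh-NC replicate 1. The 95% intervals of ORC1 and ORC6 lay wholly below those of the other 4 genes.

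The relative levels of the subunits shifted accordingly. In sh-NC there were 2.56 and 2.64 TPM of ORC1 per TPM of ORC3, and in sh-ANP32B there were 1.45 and 1.31. The same ratio for ORC6 over ORC3 was 2.44 and 2.33 in controls against 1.40 and 1.26 after knockdown. ORC1 over ORC6, on the other hand, was 1.05 and 1.14 against 1.04 and 1.04. Across the complex, the highest gene (ORC1) exceeded the lowest (ORC4) by 7.48 times in the control means and by 3.65 times in the knockdown means. These ratios, and those of other partner genes given further on, were chosen after values were seen and were not tested.

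The genes that turn the loaded helicase into a moving one were all called lower. CDC45, which bridges helicase and GINS, had 67.1 and 70.6 TPM in sh-NC and 33.7 and 29.7 TPM in sh-ANP32B (log2 fold change -1.10, adjusted p = 3.42e-04 from limma). In the GINS complex, GINS2 fell most, from 30.8 and 30.6 TPM to 12.5 and 13.7 TPM (log2 fold change -1.17, 95% interval -1.38 to -0.96, adjusted p = 3.40e-04 from limma). GINS1 had 52.5 and 52.4 TPM against 27.2 and 26.5 TPM. GINS4 had 31.7 and 30.8 TPM against 18.3 and 19.8 TPM. GINS4 (-0.68) and GINS3 (-0.68) moved less on the log2 scale, and the interval of GINS3 reached to -0.42. GINS3 was also the least abundant of these genes, with 13.8 and 14.4 TPM against 8.14 and 8.68 TPM. GINS4 shares 1145 exonic bases with ENSG00000253174 on the opposite strand, and the handling of strand is not given in the sources used here.

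The DDK kinase consists of the catalytic subunit CDC7 and the activator DBF4. CDC7 fell from 47.8 and 50.6 TPM to 27.6 and 25.2 TPM, and DBF4 from 48.7 and 39.3 TPM to 21.7 and 18.8 TPM. The log2 fold changes were -0.88 and -1.08, and the control libraries of DBF4 lay further apart than those of CDC7. The annotation names 3 pseudogenes of DBF4, whose reads could have been mixed with its own. Among the firing factors, TOPBP1 and TICRR moved less on the log2 scale, and RECQL4 moved nearly as much as CDC7. RECQL4, a helicase-like protein needed to load the GINS complex, had 145 and 152 TPM against 78.9 and 83.3 TPM (log2 fold change -0.87). TOPBP1, the scaffold of firing and of the ATR checkpoint, had 78.1 and 79.1 TPM against 48.8 and 48.7 TPM (-0.68 on the log2 scale). TICRR, also known as treslin, which binds TOPBP1, had 16.6 and 19.6 TPM against 11.1 and 10.9 TPM (-0.67 on the log2 scale). All 3 were called lower without overlap of the groups.

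**Figure D3:**
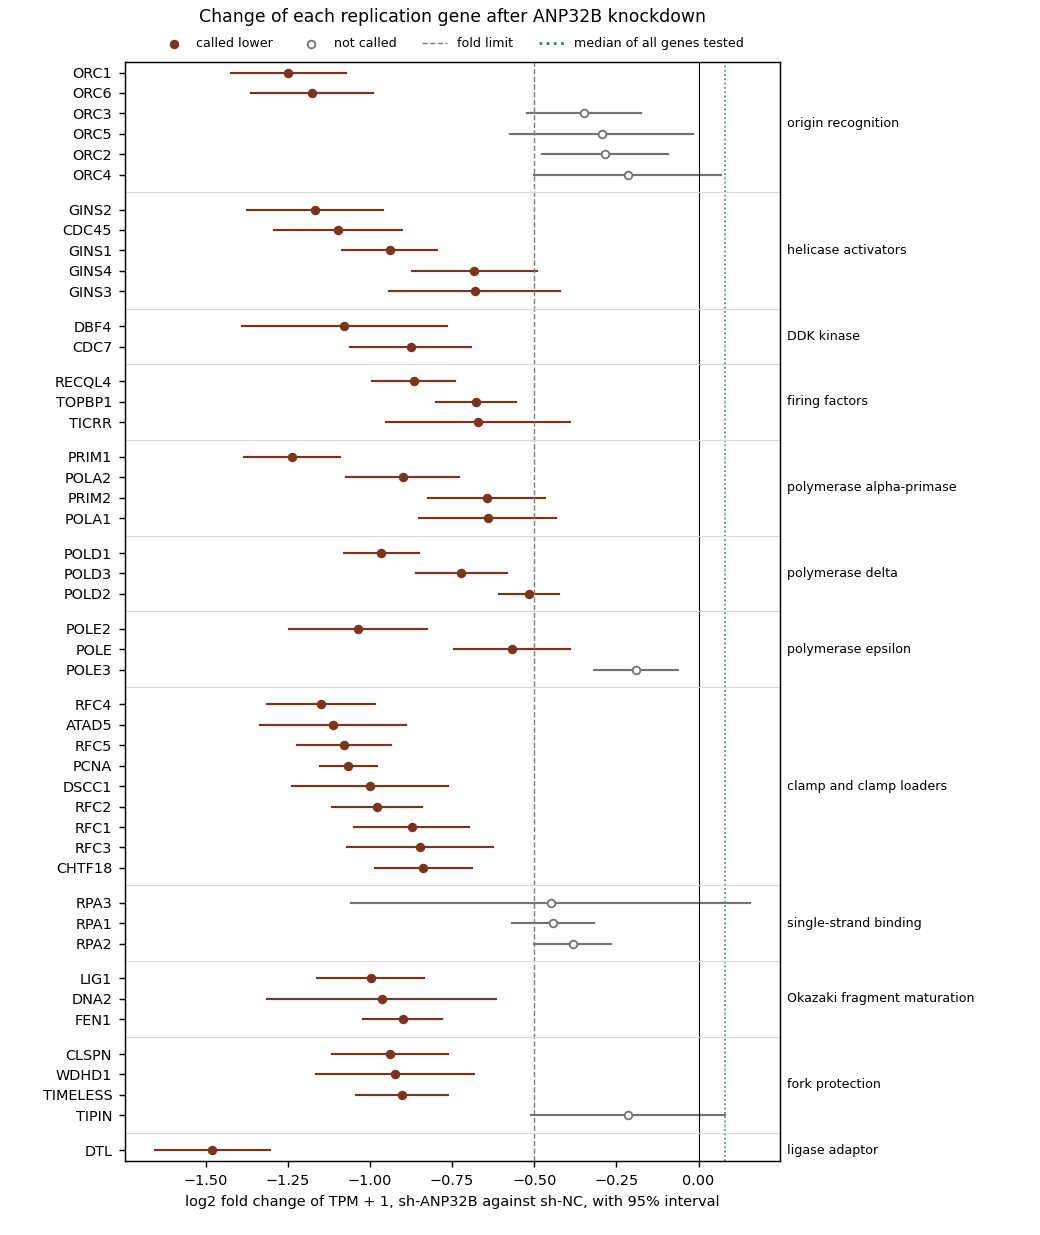
Log2 fold change of TPM + 1 for each of the 46 replication genes, sh-ANP32B against sh-NC, with the 95% interval from limma, ordered by role. Filled points were called lower and open points were not, the dashed line is the fold limit of -0.5 and the dotted line the median of all genes tested at 0.08.

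Among the replicative polymerases, the amount of the fall differed between subunits of 1 enzyme. In polymerase alpha-primase, which makes the RNA-DNA primers, all 4 genes were called lower. PRIM1 fell by 1.24 on the log2 scale, POLA2 by 0.90, PRIM2 by 0.64 and POLA1, the DNA polymerase itself, by 0.64. POLA1 had 26.8 and 29.1 TPM against 17.0 and 18.1 TPM, POLA2, its accessory subunit, had 39.1 and 40.8 TPM against 20.4 and 21.5 TPM, and PRIM2, the large subunit of primase, had 30.001 and 29.5 TPM against 19.0 and 18.3 TPM. PRIM1 over PRIM2 was 2.30 and 2.35 before and 1.47 and 1.61 after knockdown. PRIM1 shares 362 exonic bases with ENSG00000285625 and 139 with NACA, both on the same strand, and NACA was also called lower. POLA2 shares 2012 exonic bases with ENSG00000285816 on the same strand, so its values are uncertain. In all, 27 of the 46 genes share exonic bases with another annotated gene.

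Polymerase delta, the enzyme of the lagging strand, was represented by 3 genes, each called lower. POLD1, its catalytic subunit, fell from 189.9 and 186 TPM to 98.0 and 93.3 TPM (log2 fold change -0.97, 95% interval -1.08 to -0.85, adjusted p = 1.35e-04 from limma). POLD1 shares 426 exonic bases with ENSG00000142539 on the same strand. POLD3, which links the enzyme to PCNA, had 60.9 and 63.5 TPM against 37.4 and 37.2 TPM. POLD2, the most abundant of the polymerase genes, had 325 and 319 TPM against 227 and 222 TPM, and its log2 fold change of -0.52 lay just beyond the limit. The interval of POLD2 (-0.61 to -0.43) did not reach that of POLD1. The call of POLD2 was lost after quantile normalization (-0.46) and with mitochondrial genes removed (-0.49). The small subunit POLD4, which was not among the 46 genes but on the list of other fork genes, rose from 47.5 and 42.0 TPM to 109 and 116 TPM (log2 fold change 1.32, adjusted p = 2.04e-04 from limma). POLD1 thus had 4.002 and 4.42 TPM per TPM of POLD4 with sh-NC, and 0.901 and 0.801 with sh-ANP32B.

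Polymerase epsilon, the enzyme of the leading strand, showed the widest range of the 3 polymerases when only the 46 genes are counted. POLE2, its second subunit, fell from 31.7 and 33.5 TPM to 14.7 and 16.1 TPM (log2 fold change -1.04, 95% interval -1.25 to -0.83). POLE, the catalytic subunit, had 84.8 and 96.1 TPM against 61.0 and 60.1 TPM (log2 fold change -0.57). Without sh-NC replicate 2, the library of higher level, its log2 fold change was -0.48 and the call was lost. POLE3, a histone-fold subunit that also serves in a chromatin remodelling complex, had 127 and 122 TPM against 113 and 106 TPM. That was the smallest change of all 46 genes (log2 fold change -0.19, 95% interval -0.32 to -0.06, adjusted p = 0.0299 from limma), less than the fold limit. With each library left out, the adjusted p of POLE3 from limma was 0.0310 to 0.121. POLE4, the histone-fold partner of POLE3 and not among the 46, was called lower (42.1 and 48.8 against 29.3 and 21.1 TPM). The ratio of POLE2 to POLE3 was 0.249 and 0.274 with sh-NC, and 0.130 and 0.152 with sh-ANP32B.

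Of PCNA and the clamp loaders, 9 of 9 genes were called lower, with log2 fold changes from -1.15 to -0.84. PCNA, the sliding clamp and the most abundant of the 46 genes, had 402 and 403 TPM in sh-NC and 192 and 192 TPM in sh-ANP32B. Its log2 fold change was -1.07 (95% interval -1.15 to -0.98, adjusted p = 6.68e-05 from limma), although the annotation names 3 pseudogenes of it. The 5 subunits of replication factor C, which opens the clamp and places it on primers, were among them. RFC4 had 98.0 and 102 TPM against 42.4 and 46.9 TPM (log2 fold change -1.15), and RFC5 had 53.9 and 54.4 TPM against 25.1 and 25.1 TPM (-1.08). RFC2 was at -0.98, RFC1 at -0.87 and RFC3 at -0.85 on the log2 scale. In TPM, RFC1 fell from 88.2 and 87.2 to 50.4 and 44.6, RFC2 from 75.2 and 79.0 to 38.3 and 38.9, and RFC3 from 62.4 and 55.6 to 34.4 and 30.4. No library of sh-ANP32B reached a library of sh-NC in any of the 5. The log2 fold changes of the 9 genes spanned 0.31, and those of the origin recognition complex 1.03, a difference that was not tested.

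The alternative loaders were also called lower. CHTF18 and DSCC1 belong to a loader linked to sister chromatid cohesion. CHTF18 had 88.0 and 90.4 TPM against 51.5 and 47.5 TPM, and DSCC1 had 37.0 and 32.1 TPM against 16.1 and 17.3 TPM. ATAD5, which unloads PCNA after replication, was the lowest expressed of this group and fell from 25.7 and 27.5 TPM to 11.3 and 12.2 TPM (log2 fold change -1.11). CHTF8, the partner of CHTF18 and DSCC1, was not among the 46 and had 82.1 and 78.0 TPM against 102 and 113 TPM. Its rise of 0.42 on the log2 scale passed the test (adjusted p = 0.00436 from limma) but not the fold limit.

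RPA, the heterotrimer that coats single-stranded DNA at the fork and in repair, was the only role of which no gene was called. RPA1, the large subunit, had 109 and 109.9 TPM against 77.8 and 82.6 TPM (log2 fold change -0.44, 95% interval -0.57 to -0.32, adjusted p = 0.00142 from limma). RPA2 had 159 and 154 TPM against 117 and 123 TPM (log2 fold change -0.38, adjusted p = 0.00185 from limma). Both lay inside the fold limit although their groups did not overlap. RPA1 was called lower under median-of-ratios scaling (-0.54) and after centring on the median of all genes (-0.52). RPA3, the small subunit, had 41.8 and 58.4 TPM in sh-NC and 28.7 and 44.9 TPM in sh-ANP32B, which was the largest gap between replicates among the 46 genes. Its log2 fold change of -0.45 had an interval from -1.06 to 0.16 and an adjusted p of 0.184 from limma. The value of RPA3 moved with every library, as its log2 fold change was -0.69 without sh-NC replicate 1, -0.21 without sh-NC replicate 2, -0.13 without sh-ANP32B replicate 1 and -0.77 without sh-ANP32B replicate 2, the last of which was called lower. RPA3 shares 118 exonic bases with UMAD1 on the opposite strand, and 2 pseudogenes are named after it. RPA1 over RPA2 was 0.684 and 0.714 with sh-NC, and 0.666 and 0.673 with sh-ANP32B.

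The genes that join Okazaki fragments, the short pieces of the lagging strand, were all called lower and by similar amounts. FEN1, the nuclease that trims flaps, had 92.5 and 92.8 TPM against 49.9 and 48.4 TPM (log2 fold change -0.90). LIG1, the ligase that seals the nicks, had 88.6 and 94.4 TPM against 43.4 and 47.2 TPM (-0.998). DNA2, a nuclease of long flaps, had 35.4 and 40.1 TPM against 21.5 and 16.4 TPM (-0.96). The knockdown libraries of DNA2 lay furthest apart of the 3, and its interval was the widest (-1.31 to -0.62). FEN1 and LIG1 had nearly equal levels in each library, at 1.04 and 0.984 TPM of FEN1 per TPM of LIG1 with sh-NC, and 1.15 and 1.03 with sh-ANP32B.

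Of the fork protection genes, which keep helicase and polymerases together and pass on the checkpoint signal, 3 of 4 were called lower. CLSPN, which carries the signal to CHEK1, had 43.1 and 43.7 TPM against 21.2 and 23.1 TPM (log2 fold change -0.94). WDHD1, which ties polymerase alpha to the helicase, had 25.9 and 26.2 TPM against 14.2 and 12.3 TPM (-0.92). TIMELESS had 58.0 and 58.5 TPM against 31.1 and 30.3 TPM (-0.90). TIPIN, the protein that binds TIMELESS, stood apart with 19.1 and 23.0 TPM against 16.9 and 19.0 TPM (log2 fold change -0.22, 95% interval -0.51 to 0.08, adjusted p = 0.190 from limma). TIMELESS over TIPIN was 3.03 and 2.54 in controls and 1.84 and 1.60 in knockdown cells. Without sh-NC replicate 1 the log2 fold change of TIPIN was -0.34, without sh-NC replicate 2 it was -0.09 and without sh-ANP32B replicate 1 it was -0.13, and it was called in none of these. TIPIN shares 579 exonic bases with RPL9P25 on the same strand, which was listed at 0.08 to 2.09 TPM.

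**Figure D4:**
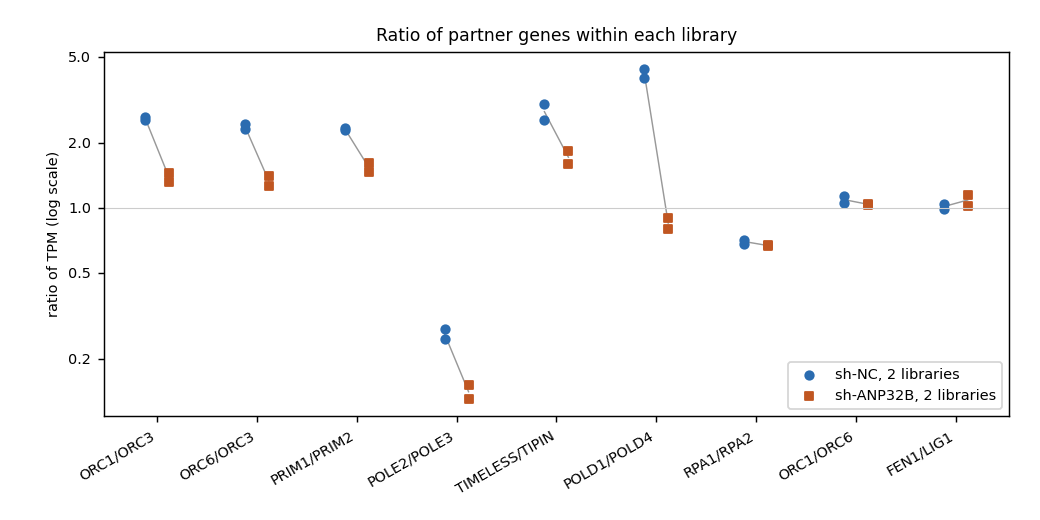
Ratio of TPM between partner genes (log axis) in each of the 2 sh-NC libraries (circles) and the 2 sh-ANP32B libraries (squares), with a line joining the group means. The ratios of ORC1 and ORC6 to ORC3, PRIM1 to PRIM2, POLE2 to POLE3, TIMELESS to TIPIN and POLD1 to POLD4 lie lower in both sh-ANP32B libraries, whereas RPA1 to RPA2 and FEN1 to LIG1 stay within 0.67 to 0.71 and 0.98 to 1.15.

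The same test was read in related lists. Licensing genes, which load the helicase before the genes above act, were all called lower (9 of 9). Their median was -1.20 on the log2 scale, with CDT1 lowest at -1.59. Of 25 other fork and checkpoint genes, 12 were called lower and 1, POLD4, was called higher, with a median of -0.49. The lowest of them was CHEK1, the checkpoint kinase downstream of ATR, which fell from 49.9 and 61.7 TPM to 18.9 and 18.3 TPM. MCM10, which helps to activate the helicase, followed (21.0 and 21.9 against 7.45 and 8.93 TPM). ATR itself had 19.0 and 18.5 TPM against 17.3 and 16.6 TPM and did not pass the test (adjusted p = 0.213 from limma). Of the 6 histone chaperones that assemble nucleosomes behind the fork, 5 were called lower, and ASF1A (24.9 and 24.96 against 21.99 and 21.1 TPM) was not, while its paralog ASF1B fell from 95.5 and 99.4 TPM to 48.1 and 43.6 TPM.

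DNA polymerase genes with work outside the fork, in repair, lesion bypass and mitochondria, served as a list of like enzymes. Of these 13 genes, 2 were called lower and 1, POLN, higher, and their log2 fold changes had a median of 0.21. The lower ones were POLQ, the polymerase of an end-joining pathway (21.1 and 23.3 against 10.3 and 9.85 TPM), and MAD2L2, a subunit of the bypass polymerase zeta. POLG, which copies the mitochondrial genome, had 67.2 and 68.4 TPM against 67.7 and 65.005 TPM (log2 fold change -0.03, 95% interval -0.16 to 0.09). By comparison, 9 of the 10 genes of polymerases alpha-primase, delta and epsilon among the 46 were called lower. The difference between these lists was not tested.

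**Figure D5:**
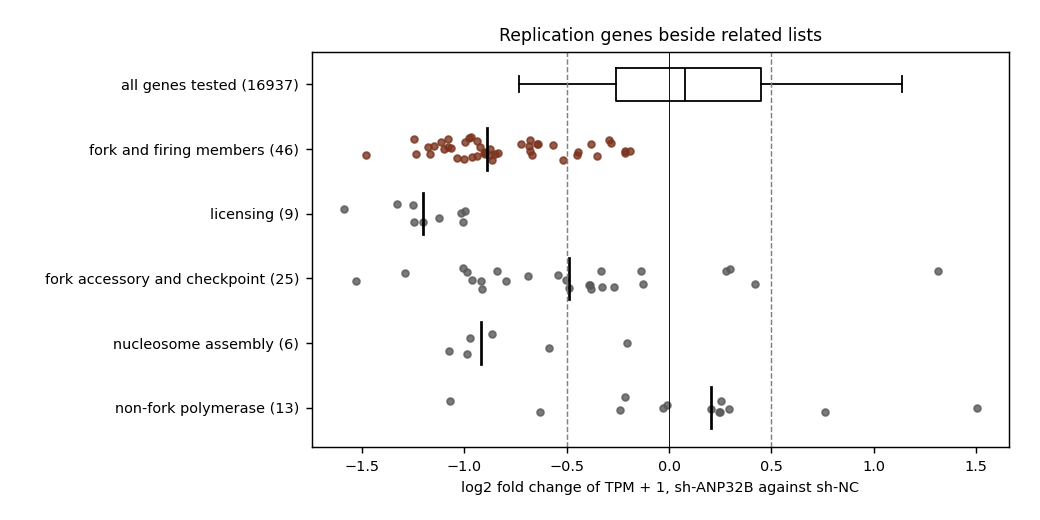
Log2 fold change of TPM + 1, sh-ANP32B against sh-NC, for all genes tested (box from percentile 25 to 75, whiskers from 5 to 95), the 46 replication genes and 4 related lists, with 1 point per gene, bars at the medians and the number of genes in brackets. The replication genes have a median of -0.89 and the non-fork polymerase genes one of 0.21, on either side of the median of all genes at 0.08.

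Some other marks of the cell state also changed, in both directions. The 3 genes of cycling cells, MKI67, CCNB1 and TOP2A (which is also on the list of other fork genes), were all called lower, and their sum was 536 and 534 TPM in sh-NC and 258 and 261 TPM in sh-ANP32B. Of the 8 monocyte markers fixed, 6 were listed and 5 were called higher, with a summed level of 545 to 556 TPM in sh-NC and 5923 to 5957 TPM in sh-ANP32B. LYZ made up most of that sum, CSF1R was at 0.96 to 2.36 TPM in the 4 libraries and was not called, and CD14 and FCGR3A were not among the genes listed. Of the 7 marks of this leukemia, CD4 (381 and 383 against 619 and 618 TPM) and SPI1 (250.3 and 257 against 361 and 361 TPM) were called higher, and MEIS1 was called lower (44.2 and 47.9 against 30.2 and 29.6 TPM). HOXA9, KMT2A, FLT3 and CD33 were not called. The rise of CD33 by 0.40 on the log2 scale passed the test (adjusted p = 0.00300 from limma) but not the fold limit. The part of these changes in the levels of the replication genes was not tested.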

How the data were processed

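RNA-seq of MV4-11 cells was analysed in 2 sh-NC and 2 sh-ANP32B libraries, with groups from the sample titles. Reads had been aligned to hg38 with HISAT2 (version 2.0.5, per the submitters' processing notes), and the authors deposited 1 TPM value for each gene in each library. TPM was inferred as the unit from the column sums, and the quantification tool, annotation and strand handling are not given in the sources used here. Of the 18885 gene IDs, 14961 had a GENCODE version 44 symbol. The authors called genes with DESeq2, which needs counts. Here limma (version 3.58.1, R 4.3.3) was fitted to log2(TPM + 1) with lmFit and eBayes with a trend, and a pseudocount of 1 understates changes of low genes. On simulated data of 16382 genes with 200 changed by 1 on the log2 scale, 183 were recovered and 10 others called. The simulation changed no genes of the lowest levels and drew normal noise with a common spread for genes of like level. In the data far more genes were called, 1712 lower and 3024 higher, so these rates need not hold for them. Tables and plots used Python 3.11.15 with pandas 2.3.3 and matplotlib 3.10.9. The genes, roles, related lists, words and ratios were chosen with earlier results of these data known. Any of the 46 genes could be named, with full statistics mainly for the extremes and for overlapping groups. Depth is unknown. Alternatives were other pseudocounts, filters, scalings, limits and tests, a replicate block and each library left out. 1 list of cell type markers is not reported here.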

Additional observations from a re-analysis of the deposited data

How the results depend on the processing

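Under the 12 alternatives that gave values for single genes, all 46 replication genes kept a negative log2 fold change. Of the 552 values, 546 kept their status as called or not called. The others were 3 calls lost (POLD2 in 2 settings and POLE in 1) and 3 gained (RPA1 in 2 settings and RPA3 in 1). A kept status can hide a crossed limit. The adjusted p of ORC4 from limma, for instance, was 0.173 in the main fit and 0.0401 after quantile normalization. The number called lower ranged from 36 to 38 with each library left out. It was 36 after quantile normalization (2230 of all genes lower) and with mitochondrial genes removed (1551 of all genes). It was 38 under median-of-ratios scaling (2326 of all genes) and after centring on the median of all genes (2123 of all genes). The centring was chosen after seeing the data. In the main fit 37 of the 46 and 1712 of all genes were called lower, so the count over all genes moved more. A fold limit of 1 left 12 of the 46 genes, 273 of all genes lower and 1136 higher, and it left 3 fork accessory and checkpoint genes, 1 nucleosome assembly gene and 1 non-fork polymerase gene. Limma's treat test against 0.5 left 27 of the 46, 481 of all genes lower and 950 higher, 7 fork accessory and checkpoint genes and 1 non-fork polymerase gene. With no fold limit, 42 of the 46 and 3342 of all genes were lower. These settings change the limit itself. The median log2 fold change of the 46 genes was -0.98 under median-of-ratios scaling, -0.86 with mitochondrial genes removed and -0.97 after centring, and -0.92 to -0.82 with each library left out. Quantile normalization moved the median of all genes from 0.08 to -0.04, and the share of lower genes among all calls from 36.1% to 50.2% (48.9% under median-of-ratios scaling). Same-numbered libraries did not deviate together (correlation -0.0232), and with the replicate number as a block 37 of the 46 genes, 1671 of all genes lower and 2853 higher were called, with an adjusted p of 0.0108 for RPA3 in limma. TPM keep no depth, so the counting error of low genes such as ORC4 and GINS3 cannot be given.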
